A study of Rattus norvegicus with 13 samples.

Results

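Some meiotic break sites of the rat lay far from any other. Of the 91120 autosomal hotspot windows in the merged table of 96640 windows, 2241 had no other window start within 60000 bp on either side, with the first and last window of each chromosome left out, and these are called isolated here. The choice used window positions only, on the rn5 assembly, and no strength. It did use where the calls of all 5 libraries fell, so the spacing of a library's hotspots can affect how often it enters. The shares of calls below are therefore a description of the rule's outcome. Strengths were not used by the rule.

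The table came from single-stranded DNA sequencing (SSDS) of DNA bound by the recombinase DMC1 in adult rat testes. It covers 5 of the 13 samples of the study, with 1 library per condition, so nothing here has a replicate check and no test between conditions was possible. The 3 wild-type libraries were from SHR/OlaIpcv (SHR), WKY and BN/RIJHsd (BN). The SHR and WKY strains have their Prdm9 allele in common, whereas that of BN is different. The other 2 libraries were from SHR rats with 1 intact Prdm9 copy (Prdm9+/-) and with none (Prdm9-/-), made by zinc-finger nuclease deletions in an exon of the PR/SET domain. The Prdm9-/- male was homozygous for a single truncating deletion, KO39. The H3K4me3 and input samples, 8 in all, were not analysed here.

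PRDM9 is a zinc-finger histone methyltransferase that binds DNA in meiotic cells and thereby places programmed double-strand breaks. Its zinc fingers differ between alleles, so strains with different alleles break their DNA at different sites. DMC1 coats the single-stranded ends of these breaks, and SSDS reads those ends. In mammals without PRDM9, breaks move to other open, H3K4me3-marked places such as promoters, often called default sites. In whole testis, a higher DMC1 signal from more cells with a break, more breaks per cell or longer-lived breaks cannot be told apart.

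The windows lay in sparse regions by the rule, so their distances to neighbours describe the choice and are no support for it. The nearest other window start was 60022 to 1494075 bp away, with a median of 80392 bp and quartiles of 68096 and 108487 bp, against a median of 8442 bp over all autosomal windows that had a neighbour on both sides. The distance to the farther of the 2 neighbours had a median of 133131 bp. Other windows were also counted over a wider stretch. That count includes the part within the limit, which the rule left empty, so the rule itself lowers it. How much of the difference lay beyond the limit was not tested. Within 500000 bp on both sides, an isolated window had a median of 18 other windows (quartiles 12 and 27, n = 2215), against 43 (quartiles 33 and 51) for all autosomal windows. Only 103 of the 2215 (4.65%) had 43 or more. Every isolated window was 3000 bp long and, by the rule, overlapped no other window, while 15870 autosomal windows overlapped one.

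All 5 libraries contributed isolated hotspots, and WKY contributed the most. In WKY, 1244 of the 2241 isolated windows held a called hotspot, which is 55.5% (Wilson 95% interval 53.4 to 57.6), against 38.3% of all autosomal windows. In wild-type SHR the number was 677, or 30.2% (28.3 to 32.1), against 21.8% of all windows. SHR Prdm9+/- was called at 627, or 28.0% (26.2 to 29.9), against 21.6%. BN was called at 490, or 21.9% (20.2 to 23.6), against 20.8%, so its interval held the autosomal share. SHR Prdm9-/- was the library with a lower share, at 430 windows or 19.2% (17.6 to 20.9) against 38.8%. These intervals cover counting error only. Chromosome by chromosome, the share called in isolated windows was above that of all windows of the same chromosome in 20 of 20 autosomes for WKY, in 20 for wild-type SHR, in 18 for SHR Prdm9+/- and in 10 for BN. For SHR Prdm9-/- it was below in 20 of 20.

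**Figure D1:**
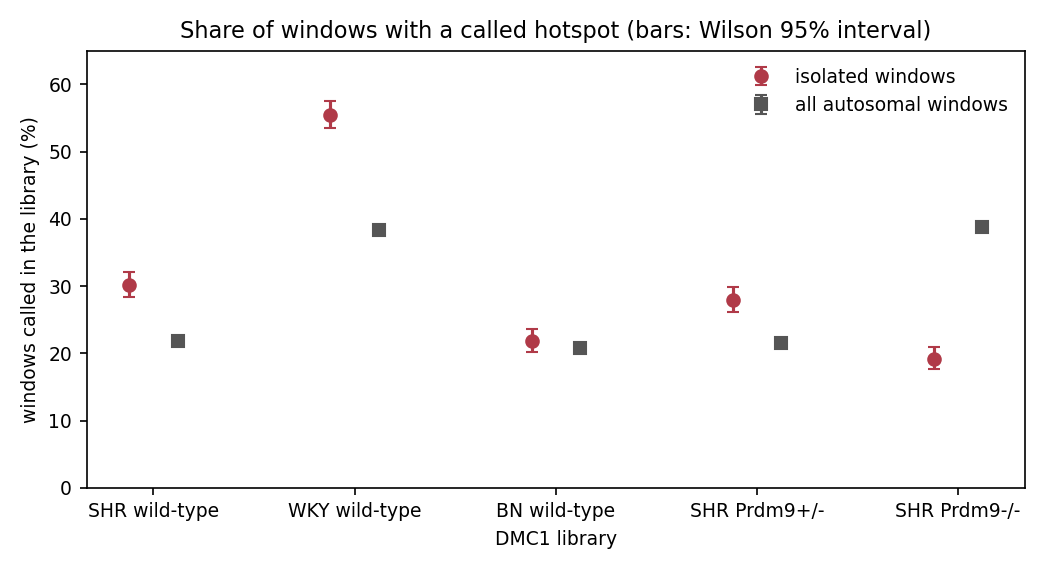
Share of windows with a called hotspot (vertical axis, percent) in each of the 5 DMC1 libraries, for isolated windows (circles) and all autosomal windows (squares), with Wilson 95% intervals as bars. WKY stands at 55.5% of isolated windows against 38.3% of all, SHR Prdm9-/- at 19.2% against 38.8%, and BN at 21.9% against 20.8%.

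The libraries differed in their number of hotspots and in how closely these lay to one another. Over all autosomes SHR Prdm9-/- had 35375 hotspots, WKY 34872, wild-type SHR 19898, SHR Prdm9+/- 19643 and BN 18995. SHR Prdm9-/- hotspots were closest to each other, with a median of 16658 bp to the nearest hotspot of the same library, against 24108 bp in WKY, 38704 bp in BN, 39490 bp in SHR Prdm9+/- and 40035 bp in wild-type SHR. Counted from the side of each library, isolated windows held 3.57% of WKY hotspots (3.38 to 3.77), 3.40% of wild-type SHR hotspots (3.16 to 3.66), 3.19% of SHR Prdm9+/- hotspots (2.96 to 3.45), 2.58% of BN hotspots (2.36 to 2.81) and 1.22% of SHR Prdm9-/- hotspots (1.11 to 1.34). On that count WKY and wild-type SHR did not differ beyond their intervals. When only the 18000 strongest autosomal hotspots of each library were kept, a setting chosen after the data were seen, 3751 windows of 59670 were isolated. Each library was then called at 30.2% of all windows. Among the isolated ones, wild-type SHR was called at 39.5%, SHR Prdm9+/- at 37.4%, WKY at 34.8%, BN at 31.4% and SHR Prdm9-/- at 16.8%. WKY thus led with all calls counted and came after wild-type SHR and SHR Prdm9+/- with equal numbers of hotspots, and SHR Prdm9-/- was lowest both ways.

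Most isolated windows were called in a single library. There were 1530 of these, 68.3% (66.3 to 70.2) against 75.3% of all autosomal windows. A further 203 were called in 2 libraries (9.06% against 8.45%), 500 in 3 (22.3%, 20.6 to 24.1, against 15.7%) and 8 in 4 (0.357% against 0.468%). In all 5 libraries 0 were called, where the whole autosomal table held 1. Windows of WKY alone made the largest class, and they had some strength without a call in SHR, which has the same Prdm9 allele. Their medians were 18 in wild-type SHR and 17 in SHR Prdm9+/- (14 and 13 over all such autosomal windows). At isolated windows of BN alone these medians were 2 and 4. Windows of WKY alone numbered 588 (26.2%, against 17.1% of all windows), followed by the trio of wild-type SHR, WKY and SHR Prdm9+/- with 497 (22.2% against 15.5%), BN alone with 478 (21.3% against 20.0%) and SHR Prdm9-/- alone with 414 (18.5% against 36.4%). The combination of wild-type SHR and WKY without SHR Prdm9+/- came to 103 windows (4.60% against 3.57%). Grouped by allele, 1301 isolated windows (58.1%, 56.0 to 60.1, against 39.9% of all) were hotspots of SHR or WKY and not of BN. Another 479 (21.4%, 19.7 to 23.1, against 20.2%) were hotspots of BN and of neither SHR nor WKY. Both alleles had a call at 11 (0.491%, 0.274 to 0.877, against 0.639%). The intervals of these last 2 classes held the autosomal share. Sites of SHR Prdm9-/- that no wild-type library used numbered 424 (18.9% against 38.2%).

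Strength, the deposited value per window and library, has no stated scaling. Its level is therefore compared within a library, between isolated hotspots and all autosomal hotspots of the same library, and between libraries only as ratios or ranks set beside their autosomal values. Against that background, isolated hotspots of WKY, BN and SHR Prdm9-/- were weaker, those of wild-type SHR had an interval that held equality, and those of SHR Prdm9+/- were stronger by a margin that some settings lost. In WKY the median strength of isolated hotspots was 172 (order-statistic 95% interval 165 to 181, n = 1244) against 210 over all autosomal hotspots, a ratio of 0.819 (0.786 to 0.862). In SHR Prdm9-/- it was 50 (46 to 55, n = 430) against 64, a ratio of 0.781 (0.719 to 0.859). In BN it was 61 (58 to 65, n = 490) against 71, a ratio of 0.859 (0.817 to 0.915). In wild-type SHR it was 74 (68 to 79, n = 677) against 72, a ratio of 1.03 (0.944 to 1.10), whose interval holds equality. In SHR Prdm9+/- it was 80 (73 to 89, n = 627) against 70, a ratio of 1.14 (1.04 to 1.27). Its interval reached equality against windows that overlap no other (1.10, 1 to 1.22), without the first and last 10 Mb (1.11, 1 to 1.24), and when windows called in SHR Prdm9-/- alone were not counted (1.07, 1 to 1.14).

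Within chromosomes the directions held for the 3 weaker libraries. Among chromosomes with 10 or more isolated hotspots, the isolated median was lower in 18 of 20 for WKY, in 16 of 17 for BN and in 16 of 16 for SHR Prdm9-/-. It was higher in 14 of 18 for SHR Prdm9+/- and in 8 of 18 for wild-type SHR. The shift in WKY, BN and SHR Prdm9-/- was larger among strong hotspots than among weak ones. The lower quartile of WKY strength was 120 in isolated hotspots against 131 in all, while the upper quartile was 286 against 382. In SHR Prdm9-/- the corresponding pairs were 32 against 36 and 88 against 121, and in BN 46 against 49 and 95 against 123. In SHR Prdm9+/- the quartiles were raised at both ends, at 50 against 42 and 151.5 against 140.5. The strongest 10% of each library were set over all its autosomal hotspots, and isolated hotspots fell into that class in 10.04% of cases for wild-type SHR (68 hotspots), 11.3% for SHR Prdm9+/- (71), 6.74% for SHR Prdm9-/- (29), 5.71% for WKY (71) and 4.90% for BN (24).

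**Figure D2:**
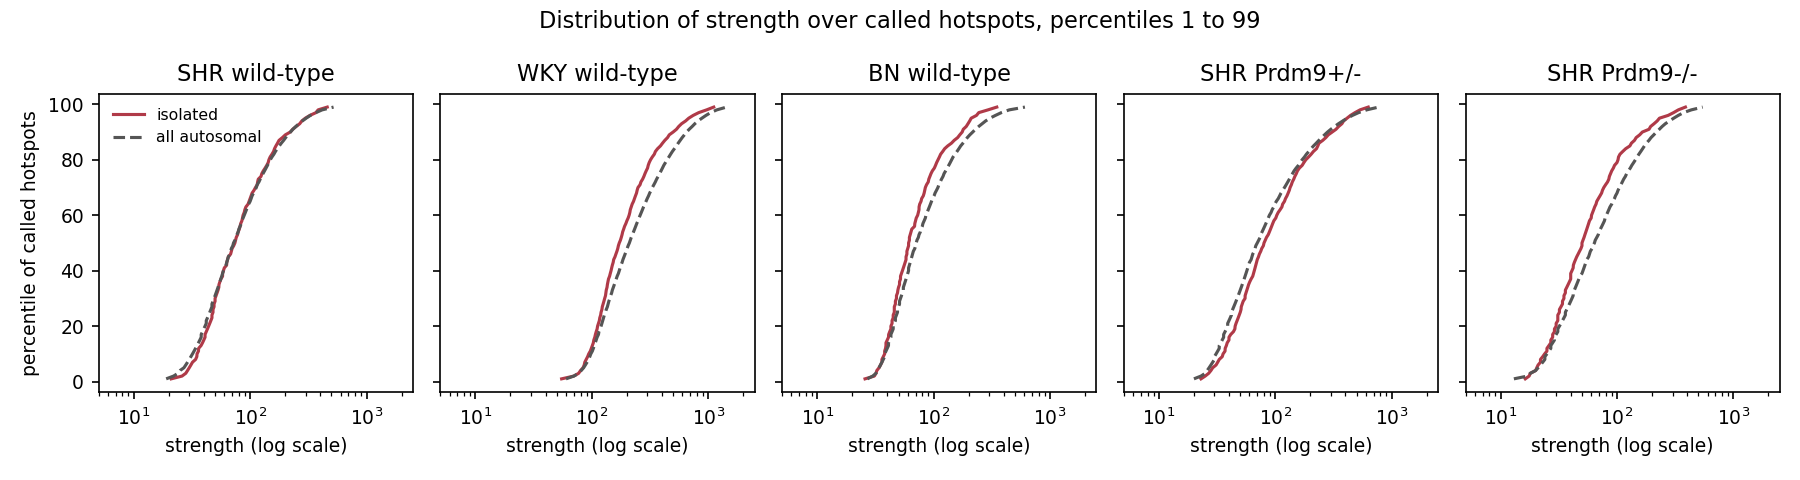
Percentile of called hotspots (vertical axis, 1 to 99) against strength (horizontal axis, log scale, arbitrary units) in each DMC1 library, for isolated hotspots (solid line) and all autosomal hotspots (dashed line). The isolated curve lies to the left in WKY, BN and SHR Prdm9-/-, on the dashed one in wild-type SHR, and to the right over most of its length in SHR Prdm9+/-.

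Summed over hotspots, isolated windows carried 3.29% of the autosomal strength of wild-type SHR, 3.31% of that of SHR Prdm9+/-, 2.84% of WKY, 2.06% of BN and 0.939% of SHR Prdm9-/-. Isolated windows without a call in a library also had a strength in it. Its median was 25 in WKY (against 21 in all uncalled autosomal windows), 9 in BN (8), 9 in SHR Prdm9+/- (7), 6 in wild-type SHR (3) and 4 in SHR Prdm9-/- (3). These levels lie far below the called medians in every library.

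The called share moved with distance on either side of the limit in WKY, wild-type SHR and SHR Prdm9-/-, and less in BN. Median strength stayed near the autosomal level from 3 to 40 kb in WKY and SHR Prdm9-/-. At 40 to 60 kb its ratio to all autosomal hotspots was 0.900 in WKY and 0.844 in SHR Prdm9-/-. Windows were placed in 8 bins of distance to the nearest other start. In WKY the share called was 36.0% at 401 to 3000 bp, 49.3% at 40 to 60 kb, 53.6% at 60 to 100 kb, 60.5% at 100 to 200 kb and 58.8% (80 windows of 136) beyond 200 kb. In SHR Prdm9-/- it was 32.8% at 401 to 3000 bp and highest at 3 to 10 kb, with 44.1%. From there it went through 26.9% at 40 to 60 kb to 22.0%, 14.7% and then 3.68%, which is 5 of the 136 windows beyond 200 kb. BN stayed between 19.9% and 25.7% in all 8 bins. Wild-type SHR was called in 21.5% of windows at 401 to 3000 bp, 20.1% at 3 to 10 kb and 27.9% at 40 to 60 kb. Its share was 30.3% at 60 to 100 kb, 31.4% at 100 to 200 kb and 24.3% beyond 200 kb.

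The median strength relative to all autosomal hotspots went down with distance in WKY, from 0.848 at 60 to 100 kb through 0.817 at 100 to 200 kb to 0.612 (0.533 to 0.733) beyond 200 kb. SHR Prdm9-/- hotspots went from 0.828 to 0.695 over the first 2 of these bins, and only 5 remained in the last. SHR Prdm9+/- hotspots had ratios of 1.14, then 1.39 (1.09 to 1.70), then 0.786 with a wide interval. BN ranged from 0.831 to 0.873 over the 3 bins. Wild-type SHR had ratios of 1.01, 1.10 and then 0.694 (0.639 to 1.07). Windows on both sides of the limit were set side by side, with no test. The 156 windows up to 2000 bp inside it included 82 WKY and 37 SHR Prdm9-/- hotspots, and the 157 windows up to 2000 bp outside it 86 and 30. The shares called inside and outside were 28.8% and 27.4% in wild-type SHR, 25.6% and 24.2% in SHR Prdm9+/-, and 20.5% and 26.1% in BN. The median strengths inside and outside were 201.5 and 181 in WKY, 69 and 67 in wild-type SHR, 73.5 and 64 in SHR Prdm9+/-, 62 and 67 in BN, and 63 and 44.5 in SHR Prdm9-/-. The window closest inside had its nearest neighbour at 60022 bp, on chromosome 9 at 81546213, and was called in SHR Prdm9-/- with strength 40. The window closest outside, at 59974 bp, lay on chromosome 2 at 150064206 and was called in wild-type SHR (181), WKY (360) and SHR Prdm9+/- (239).

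**Figure D3:**
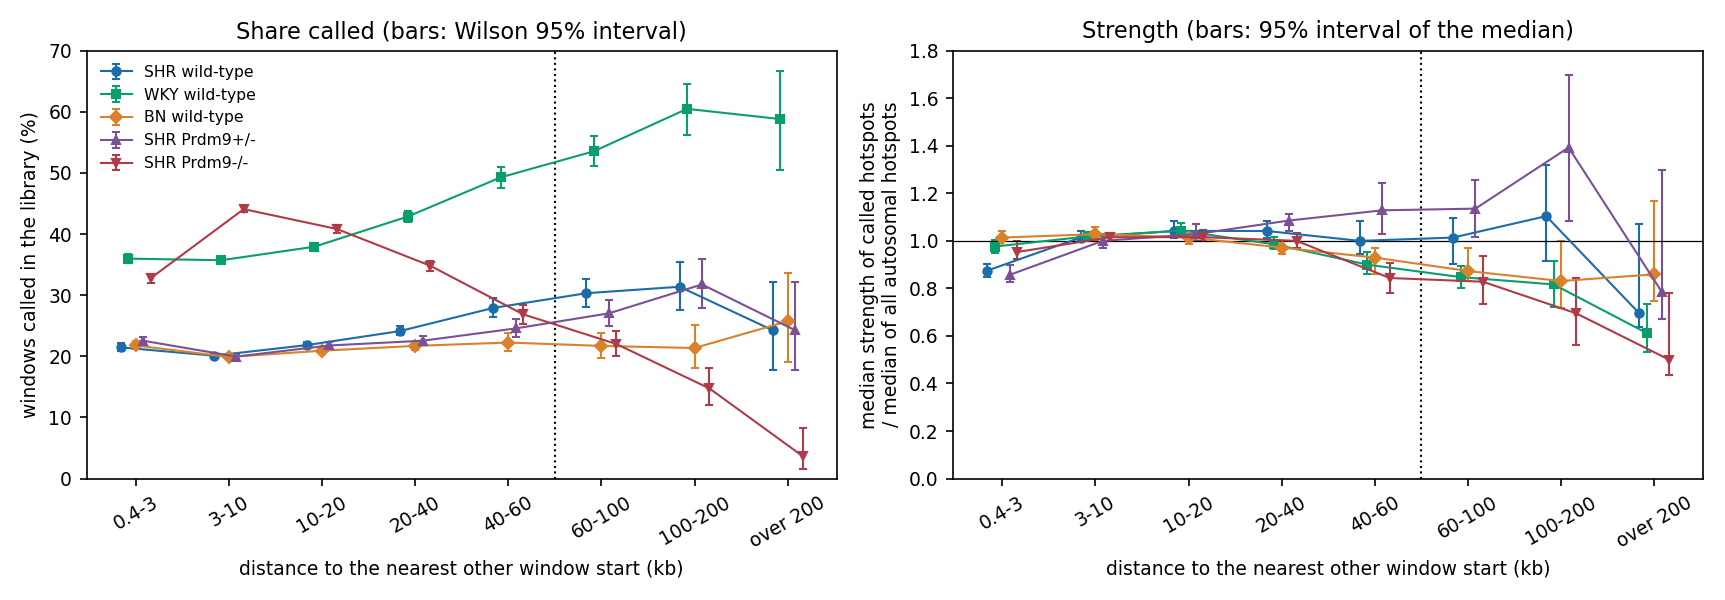
Windows by distance to the nearest other window start (horizontal axis, kb), with the 60 kb limit as a dotted line. The left panel gives the share of windows called in each library with Wilson 95% intervals, and the right panel the median strength of called hotspots over the autosomal median of that library, with 95% intervals of the median. From 60 to 100 kb to beyond 200 kb the SHR Prdm9-/- share goes from 22.0% to 3.68%, and the WKY strength ratio from 0.848 to 0.612.

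Isolated hotspots of wild-type SHR were mostly WKY hotspots too, while about as many isolated WKY hotspots lacked an SHR call as had one. With all calls counted, both shares were close to those of all hotspots. WKY had a call at 609 of the 677 isolated wild-type SHR hotspots (89.96%, 87.5 to 92.0, against 89.5% over all autosomal hotspots of SHR). In the other direction 609 of the 1244 WKY hotspots were called in wild-type SHR (49.0%, 46.2 to 51.7, against 51.1%). With the 18000 strongest hotspots of each library, 64.4% of isolated wild-type SHR hotspots (61.9 to 66.8) were called in WKY. Over all windows of that setting it was a larger share, 13217 of 18000. Whether a WKY hotspot was also called in SHR varied with its strength. Over 5 classes of WKY strength set on all autosomal hotspots, the isolated ones were called in SHR in 16.6% of the weakest (12.8 to 21.2, against 11.8% of all), 36.0% (26.9%), 60.9% (52.2%), 78.7% (77.5%) and 78.9% of the strongest (71.8 to 84.7, against 87.0%). Isolated WKY hotspots were thus called in SHR more often than all hotspots of the same class at the weak end and less often at the strong end, with intervals that do not hold the autosomal value at either end.

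At shared sites the balance of the 2 strains differed from the autosomal one. The strength of SHR divided by that of WKY had a median of 0.311 (0.292 to 0.331, n = 609) at isolated hotspots and 0.230 (0.228 to 0.233, n = 17809) at all autosomal ones with a WKY strength above 0. The level of this ratio depends on the unknown scales, but a constant scale per library falls out when isolated and all hotspots are set side by side. The ratio was 0.222 at 401 to 3000 bp, 0.238 at 20 to 40 kb, 0.275 at 40 to 60 kb, 0.298 at 60 to 100 kb, 0.347 (0.287 to 0.379) at 100 to 200 kb and 0.394 beyond, at 22 hotspots with an interval that starts at 0.318. It was higher at isolated sites in 18 of the 18 chromosomes with 10 or more of them, where isolated medians ranged from 0.244 to 0.417 and autosomal medians from 0.212 to 0.263.

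The difference in balance was present at each level of SHR strength. In 5 classes of SHR strength, from the weakest to the strongest, the isolated ratio was 0.205, 0.272, 0.337, 0.368 and 0.483, and the autosomal ratio was 0.157, 0.201, 0.233, 0.259 and 0.337. In the strongest class the SHR medians were 228 and 225, and the WKY medians 483 at isolated and 725 at all hotspots. At sites of like SHR strength, WKY strength was therefore lower at isolated windows. Among the trio windows, called in wild-type SHR, WKY and SHR Prdm9+/-, SHR had a median of 89 (84 to 98) against 90 over all such windows, and WKY 275 (259 to 290) against 382 (376 to 387). With the 18000 strongest hotspots of each library, the ratio was 0.254 (0.244 to 0.267) at isolated and 0.217 (0.215 to 0.220) at all sites. The part that sequencing depth, base composition or regional mappability have in these ratios was not tested.

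**Figure D4:**
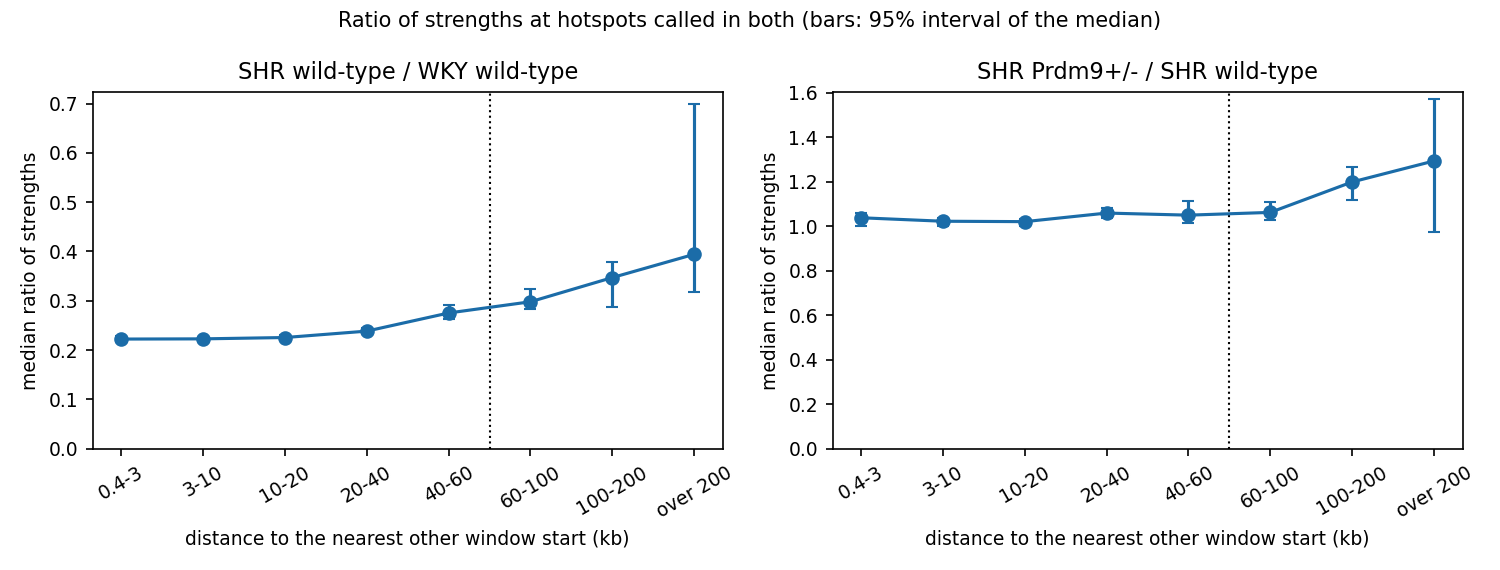
Median ratio of strengths at hotspots called in both libraries (vertical axes) by distance to the nearest other window start (horizontal axes, kb), for SHR over WKY wild-type (left) and for SHR Prdm9+/- over SHR wild-type (right). Bars are 95% intervals of the median and the dotted line marks 60 kb. The left ratio goes from 0.222 in the closest bin to 0.347 at 100 to 200 kb, and the right one from 1.04 to 1.20.

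Most isolated SHR sites were called with 1 copy of Prdm9 as well. SHR Prdm9+/- was called at 549 of the 677 isolated hotspots of wild-type SHR (81.1%, 78.0 to 83.9, against 79.3%). Conversely, wild-type SHR was called at 87.6% of the isolated SHR Prdm9+/- hotspots (84.7 to 89.9, against 80.3%), and WKY at 87.2% (84.4 to 89.6, against 80.1%). The strength of Prdm9+/- over that of wild-type SHR had a median of 1.10 (1.06 to 1.15, n = 549) at isolated sites, against 1.03 (1.02 to 1.04) over all autosomal ones. It was higher at isolated sites in 12 of 18 chromosomes and lower in 6. In 5 classes of Prdm9+/- strength, from weakest to strongest, the isolated ratio was 0.721, 0.980, 1.06, 1.21 and 1.41 and the autosomal one 0.727, 0.912, 1.01, 1.15 and 1.44, so the weakest and the strongest class were slightly below the autosomal value and only in the second did the isolated interval (0.932 to 1.04) miss it. At 100 to 200 kb the ratio was 1.20 (1.12 to 1.27) and beyond 200 kb 1.29 (0.972 to 1.57, n = 25). Strengths of the pair ranked alike, with a Spearman correlation across windows of 0.839 at the 549 isolated and 0.830 at the 15774 autosomal hotspots they shared. The same correlation between wild-type SHR and WKY was 0.578 (n = 609) and 0.664 (n = 17814). Windows are not independent replicates, and all of them share the same pair of libraries.

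Hotspots of rats without PRDM9 were almost all sites of their own, isolated or not. Of the isolated ones, 96.3% (94.0 to 97.7) were called in that library alone, against 93.7% of all its autosomal hotspots. Of the 430 isolated hotspots of SHR Prdm9-/-, 6 were called in a wild-type library (1.40%, against 1.60% over all autosomal hotspots of SHR Prdm9-/-), and 15 were called in SHR Prdm9+/- (3.49%, 2.13 to 5.68, against 5.70%). The interval of the latter falls just short of the autosomal value. These 15 had a median Prdm9-/- strength of 221, against 50 for the others. Seen from the Prdm9+/- library, those 15 were 2.39% of its isolated hotspots (1.46 to 3.91), whereas 10.3% of all its autosomal hotspots were also called in SHR Prdm9-/-. In the neighbourhood, an isolated window had on average 6.33 SHR Prdm9-/- hotspots within 500000 bp on both sides, against 17.2 around all windows, and 12.4% of isolated windows had none there, against 1.41%. The corresponding ratio of means was 0.368 for SHR Prdm9-/-, 0.499 for BN, 0.574 for SHR Prdm9+/-, 0.603 for WKY and 0.617 for wild-type SHR. Because windows of all 5 libraries count as neighbours, lower numbers are partly set by the positions that the rule used, and they are a description only. WKY hotspots lay closer together than those of BN (median 24108 against 38704 bp), and the WKY ratio was the higher one. The part that spacing has in these ratios was not tested.

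The 2 Prdm9 alleles rarely met at isolated windows, as was the case over all autosomal windows. Of 490 isolated BN hotspots, 11 were called in WKY (2.24%, 1.26 to 3.97, against 2.94% of all autosomal BN hotspots) and 6 in wild-type SHR (1.22% against 1.72%). Those 11 windows include the 6. The 3 with the highest summed strength were chr13:13648096-13651096, called in WKY (535) and BN (293), chr14:615545-618545, called in WKY (566) and BN (192), and chr2:191024256-191027256, called in BN (152), WKY (127), SHR Prdm9+/- (290) and wild-type SHR (212). The first and second of these also had strengths without a call in the other 3 libraries, of 30, 79 and 41 and of 48, 72 and 28 in wild-type SHR, Prdm9+/- and Prdm9-/-. The 8 windows called in 4 libraries comprised 5 with a BN call and 3 with a SHR Prdm9-/- call.

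The strongest isolated hotspot of each library shows what a lone site looked like. For wild-type SHR it was chr3:96245772-96248772, with strength 683, 267 in WKY, 933 in SHR Prdm9+/- and uncalled strengths of 4 in BN and 14 in SHR Prdm9-/-. It ranked 86 among all autosomal SHR hotspots. For SHR Prdm9+/- it was chr2:108950639-108953639, with 1222, next to 579 in wild-type SHR and 907 in WKY, uncalled at -1 in BN and 10 in SHR Prdm9-/-. Both are sites shared by the strains with the SHR allele and near 0 elsewhere.

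For BN the strongest was chr1:31976050-31979050, with 1180 and between -5 and 7 in every other library. For SHR Prdm9-/- it was chr1:19572866-19575866, with 555, called in SHR Prdm9+/- too (109) and uncalled in wild-type SHR (19), WKY (34) and BN (8). It ranked only 341 in its library, where the strongest isolated hotspots of the other 4 ranked between 33 and 86. For WKY it was chr13:35718754-35721754, with 2839, and its nearest neighbour lay 556769 bp away. This window was called in WKY alone although its strengths were 462 in BN, 214 in SHR Prdm9+/-, 153 in wild-type SHR and 117 in SHR Prdm9-/-, so it stood above background in all 5 libraries.

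Such windows were counted after this was seen. In 16 isolated windows (0.714%, 0.440 to 1.16) the strength of each of the 5 libraries lay above the 95th percentile of its uncalled autosomal windows, against 269 of all autosomal windows (0.295%). Of the 16, 11 were called in 1 library. Another of them, chr17:59048634-59051634, had strengths of 2379 in WKY, 851 in BN, 162 in SHR Prdm9+/-, 125 in SHR Prdm9-/- and 85 in wild-type SHR. Without them the median WKY strength at isolated hotspots was 171, and the ratio of SHR to WKY was 0.311.

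The 5 most remote windows had their nearest neighbour 930520 to 1494075 bp away, 4 of them on chromosome 13. The most remote, chr13:12154021-12157021, was called in wild-type SHR (46) and SHR Prdm9+/- (44) and had 119 in WKY without a call, 12 in BN and 3 in SHR Prdm9-/-. Its neighbours in this list, chr13:14821736-14824736 (50 in SHR and 92 in Prdm9+/-) and chr13:16230740-16233740 (29 and 53), had the same pair of calls, again with uncalled WKY strengths of 61 and 52. The window chr4:167687720-167690720 was called in WKY (98) and SHR Prdm9+/- (38). The remaining one was chr13:13648096-13651096, described above. None of the 5 was called in SHR Prdm9-/-, where their strengths were 2 to 41.

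The nearest neighbours of isolated windows were compared with them by calling library. The nearest window shared at least 1 calling library with it in 44.1% of cases (42.0 to 46.2), against 38.3% over all autosomal windows. For WKY hotspots the nearest window was also a WKY hotspot in 55.0% (52.2 to 57.7, against 39.7%), and for wild-type SHR hotspots a SHR hotspot in 32.3% (against 21.7%). For SHR Prdm9-/- the value was 27.4% (23.4 to 31.8) and thus below its 43.9% over all windows. For WKY and wild-type SHR these values are close to the shares of isolated windows called in the library, 55.5% and 30.2%. The SHR Prdm9+/- value was 30.9% (27.4 to 34.7), beside a called share of 28.0%. That of BN was 24.5% (20.9 to 28.5), beside 21.9%. The 27.4% of SHR Prdm9-/- lay above its called share of 19.2%, although below its value over all windows. A nearest window need not be isolated, so the called share is only a rough yardstick. No association between a window and its neighbour is drawn from these values.

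Many isolated windows followed one another along the chromosome. Of the 2241, 1078 stood between non-isolated windows on both sides, and 1163 (51.9%) belonged to runs of 2 or more consecutive isolated windows. The rule favours such runs, because a window beside an isolated one already has a gap above the limit on the facing side. The share expected from the rule alone was not calculated, so the runs are a description only. The longest run held 11 windows on chromosome 3, from 93335897 to 94376106, with 6 calls in WKY, 4 in wild-type SHR, 4 in SHR Prdm9+/-, 3 in SHR Prdm9-/- and 2 in BN. A run of 9 on chromosome 13 stretched over 15319031 bp, from 2378767 to 17697798, and holds the remote windows of that chromosome named above. Over 13 gaps of more than 2 Mb between neighbouring windows, on 13 chromosomes, only 7 isolated windows lay beside one. The longest gap, 65178953 bp on chromosome 4, had no window start between 67960095 and 133139048, so hotspots of that stretch were not analysed here.

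Autosomes differed in how many isolated windows they held. The share was highest on chromosome 2 (3.32%, 279 windows) and chromosome 5 (3.25%, 181) and lowest on chromosome 12 (0.934%, 21) and chromosome 10 (0.999%, 45). With gaps over 2 Mb left out of the length, chromosomes 12, 20 and 10 had the densest windows, at 43.3, 42.9 and 40.7 per Mb, and chromosomes 13, 2 and 1 the sparsest, at 31.4, 31.7 and 31.8. Within chromosomes, the last 10 Mb held 5.62% of isolated windows (4.74 to 6.65) against 9.22% of all, and the first 10 Mb 7.45% (6.44 to 8.61) against 6.42%. Isolated windows were thus fewer than all windows in the last 10 Mb of the coordinates, while in the first 10 Mb the interval began right at the autosomal share.

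**Figure D5:**
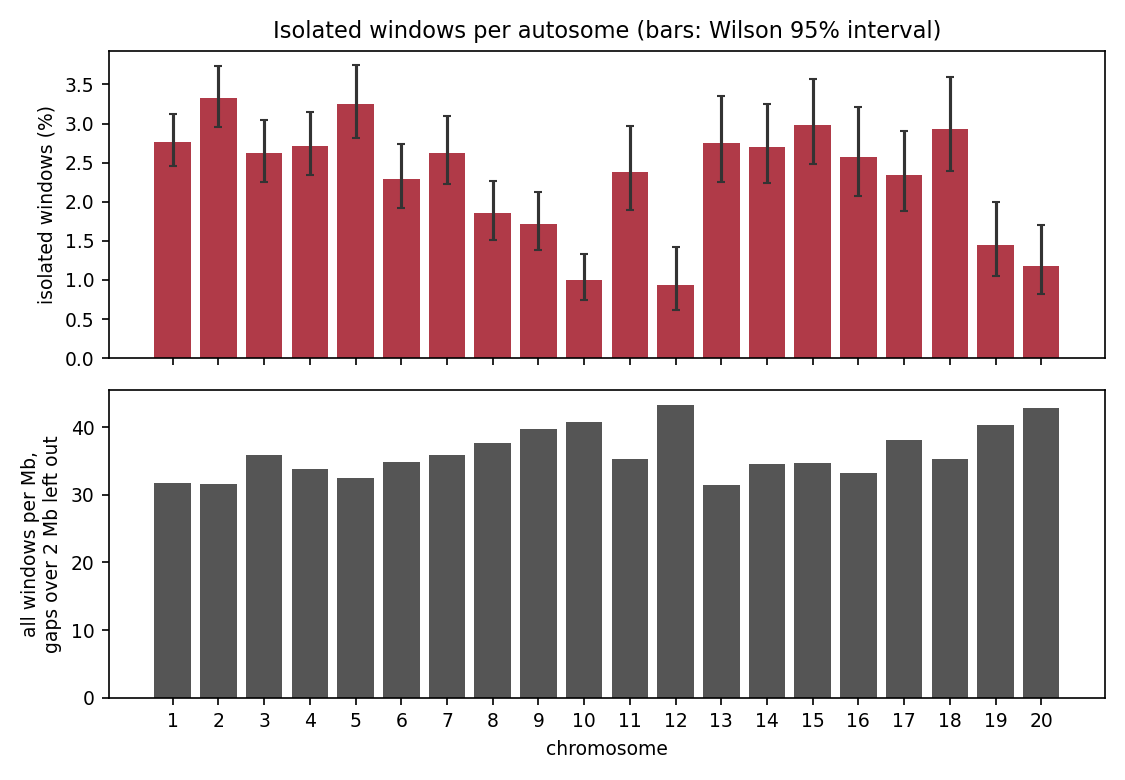
Share of the windows of each autosome that were isolated (upper panel, percent, with Wilson 95% intervals) and number of all windows per Mb with gaps over 2 Mb left out of the length (lower panel). Chromosomes 10, 12 and 20, with 40.7 to 43.3 windows per Mb, have isolated shares of 0.934% to 1.18%, and chromosome 2 has the highest share at 3.32%.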

How the data were processed

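The study's DMC1 SSDS libraries were made from snap-frozen adult testes. Hotspot calls are the authors' own, on rn5. The bwa they used was a modified one, and only single-stranded fragments of type 1 with a unique position entered the calls. The submitters' processing notes name BWA 0.7.12, MACS2 2.1.0.20150420 and bedtools 2.23.0. For each window and library, the deposited table gives a strength, used here as a score, and a mark of 1 or 0 for a call. How strength was scaled and how windows were merged are not given in the sources used here. Read depth is unknown. Some strengths are negative, which the sources do not explain.

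Distances are between window starts, as deposited. The windows and groupings described were chosen with earlier results of these data known. Windows named in the text are the strongest isolated hotspot of each library, the 5 most remote, the 3 of highest summed strength among those called in BN and in SHR or WKY, and those nearest the limit. Shares have Wilson 95% intervals and medians order-statistic 95% intervals. Both cover counting error only, and no test was run, since each condition has 1 library. The functions recovered 7 of 7 known answers, some on simulated data and some that used the real window positions. Scripts ran under Python 3.11.15 with scipy 1.17.1, pandas 2.3.3, numpy 2.4.6 and, for plots, matplotlib 3.10.9. Alternatives were other limits, windows, calls and averages. No genome or gene annotation of rn5 was used here, so neither sequence nor genes are given for the windows.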

Additional observations from a re-analysis of the deposited data

How the results depend on the processing

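No paired analysis was possible because each condition had 1 library and no result came from a test. Alternatives gave 164 values, of which 105 lay inside the reported interval and 59 outside. Keeping the terminal windows, leaving out the first and last 10 Mb or chromosomes 12 and 20, and comparing with windows that were not isolated or overlapped no other left each value within its interval, although the SHR Prdm9+/- strength ratio then reached equality in 2 of these settings, as given above. At a limit of 40000 bp, 5400 windows were isolated, WKY was called at 51.9%, SHR Prdm9+/- at 26.0% and SHR Prdm9-/- at 23.7%, and the SHR over WKY ratio was 0.292. At 100000 bp, 665 windows were isolated and the 3 shares were 60.2%, 30.2% and 12.5%. The strength ratio to all autosomal hotspots was then 0.755 in WKY and 0.672 in SHR Prdm9-/-, isolated SHR hotspots were called in WKY at 86.9% and in SHR Prdm9+/- at 83.9%, and the ratios were 0.355 for SHR over WKY and 1.20 for Prdm9+/- over SHR. When windows called in SHR Prdm9-/- alone were not counted, 3855 were isolated, and wild-type SHR was called at 37.6%, WKY at 65.9%, BN at 29.3%, SHR Prdm9+/- at 35.5% and SHR Prdm9-/- at 2.18%. The share in exactly 1 library was 59.0%, the WKY strength ratio 0.886, SHR over WKY 0.272 and Prdm9+/- over SHR 1.05, and 88.1% of SHR Prdm9-/- hotspots were called in SHR Prdm9+/-, by construction. Over all windows kept, wild-type SHR was called at 34.3%, WKY at 60.1%, BN at 32.8%, SHR Prdm9+/- at 33.9% and SHR Prdm9-/- at 3.86%. BN, at 29.3% of isolated windows, was then below its share over all windows kept. When windows called in WKY alone were not counted, chosen like the next setting after the data were seen, 2812 were isolated and the 5 shares in the same order were 39.0%, 38.4%, 30.7%, 36.2% and 27.1%, with 58.4% in exactly 1 library, a WKY strength ratio of 0.767 and SHR over WKY at 0.287. Over all windows kept in that setting the shares were 26.3%, 25.6%, 25.1%, 26% and 46.8%. BN, at 30.7%, was there above its 25.1%, so its direction varied with the setting. With the 18000 strongest hotspots of each library, 3751 were isolated and the shares were 39.5%, 34.8%, 31.4%, 37.4% and 16.8%, with 63.4% in exactly 1 library, strength ratios of 0.895 in WKY and 0.892 in SHR Prdm9-/-, 64.4% of SHR hotspots called in WKY, 5.85% of SHR Prdm9-/- hotspots called in Prdm9+/-, and SHR over WKY at 0.254. Over all windows of that setting, 13217 of the 18000 SHR hotspots were called in WKY, a larger share than the isolated 64.4%. Counting only calls at or above the lower quartile of strength gave shares of 24.1%, 38.4%, 14.9%, 23.2% and 13.2%, with 46.1% in exactly 1 library, 83.3% of SHR hotspots called in WKY, 84.1% in Prdm9+/-, and 2.03% of SHR Prdm9-/- hotspots called in Prdm9+/-. Windows that lost every call stayed in the denominator, so the 46.1% does not show more sharing between libraries. Shares over all autosomal windows were not calculated for these stricter calls, which lower every share by construction. With means in place of medians, the strength ratio was 0.797 in BN and 1.04 in SHR Prdm9+/-, SHR over WKY was 0.383 and Prdm9+/- over SHR 1.19. The settings for the 2 ratios between libraries were also chosen after the data were seen. The causes of these shifts were not tested. With read depth unknown, a window without a call cannot be told from one below detection.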
